A study of Saccharomyces cerevisiae with 4 samples.

Results

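Mitochondrial ribosomal protein genes were followed in budding yeast (Saccharomyces cerevisiae) exposed to zymolyase, an enzyme preparation that digests cell wall glucan. They were taken by name, as nuclear genes called MRPL, MRPS, MRP or RSM with a number, which gave 67 genes. Of these, 65 were among the 6207 reading frames of the deposited table and 63 had a value on all 4 arrays, of 4788 such genes in all. MRPL36 had a value on 3 arrays and MRPL33 on 0, and MRP10 and MRPL15 were not analysed here. The 63 comprised 35 proteins of the large subunit, 26 of the small subunit, and MRP8 and RSM22, which belong to neither.

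The titles name the slt2 mutant on all 4 arrays, and no array is titled as wild type. Cultures were in rich glucose medium (YEPD) at 24 °C. The strain and the kind of slt2 mutation are not given in the labels. Slt2 is the last kinase of the cell wall integrity pathway. Zymolyase 100T at 5 units per ml was given to 1 part of a culture for 3 h, and the other part stayed untreated. Both RNAs were hybridised to the same array in opposite dyes, and RNA from 2 cultures was spread over 4 arrays without a stated link between array and culture. The zymolyase source of array 3 is written as wild type, against its title. SLT2 had a value on 0 arrays and could not check this, so whether wild type RNA entered array 3 is open.

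The mitochondrial ribosome makes the few proteins that mitochondrial DNA encodes, nearly all of them subunits of the respiratory chain and of ATP synthase. Its RNAs come from mitochondrial DNA, whereas its proteins, apart from Var1, are made in the cytosol from nuclear genes and imported. Many of these proteins have a counterpart in the bacterial ribosome and others occur only in mitochondria. Yeast growing on glucose ferments and needs little respiration, and the messenger RNAs of many of these genes are bound by the protein Puf3.

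The deposited log ratios were taken as log2 and turned on arrays 2 and 4, so that the sign follows the zymolyase channel. Since the numerator is not stated in the sources used here, the direction of a change is open, and values are given toward the side of 2 called genes. Values above 0 lie on the side of HSP12, a small heat shock protein gene (2.63 ± 0.58; SD, n = 4), and values below 0 on the side of TIP1, a wall mannoprotein gene (-1.17 ± 0.45). If channel 2 was divided by channel 1, the TIP1 side is lower with zymolyase. If channel 1 was divided by channel 2, it is higher. Each SD is taken over 4 arrays that differ in culture and in dye orientation.

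No mitochondrial ribosomal protein gene was called by the test across all genes, and most means lay close to 0. RNA of whole cultures was measured, in which a change in every cell and a larger one in some cells cannot be told apart. Of the 63, 0 were called (limma, adjusted p under 0.05), whereas 4.55% of all tested genes were (218 of 4788). This splits into 4.34% toward HSP12 and 0.209% toward TIP1, the side of most members. For that side 0 calls is near the share over all genes and does not set the members apart. With the pairing of arrays 1 with 4 and 2 with 3 taken alone, 11 members were called, of which 10 lay on the TIP1 side, while the same fit called 29.6% of all genes. At an unadjusted p under 0.05 there were 2, MRP49 and MRPL20, against 11.5% of all tested genes. Means ran from -0.53 for MRPL20 (1.45-fold) to 0.66 for MRP49 (1.58-fold), and 61 of 63 were under 0.5 in size. The 95% intervals extended 0.48 to 0.58 to either side of the mean, and for 61 members they lay wholly within 1 log2 unit of 0. For all members but MRP49, the fit that set the width gave every gene a common variance. MRPL28 (SD 0.07) and MRPL51 (SD 0.68) thus had the same width, and their intervals and p-values do not follow the gene's own spread. An interval within 1 unit therefore restates a small mean. MRPL20 (down to -1.01) and MRP49 (up to 1.24) had intervals that reached a 2-fold change.

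Small as they were, the means lay mostly on the TIP1 side. They did so for 53 of 63 members (84.1%), against 57.5% of all tested genes, with a median of -0.15, against -0.06 over all. The means differed less between members than between genes in general, with an SD of 0.20 against 0.40. These shares carry no p-value, since the members were chosen by name with earlier results known.

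**Figure D1:**
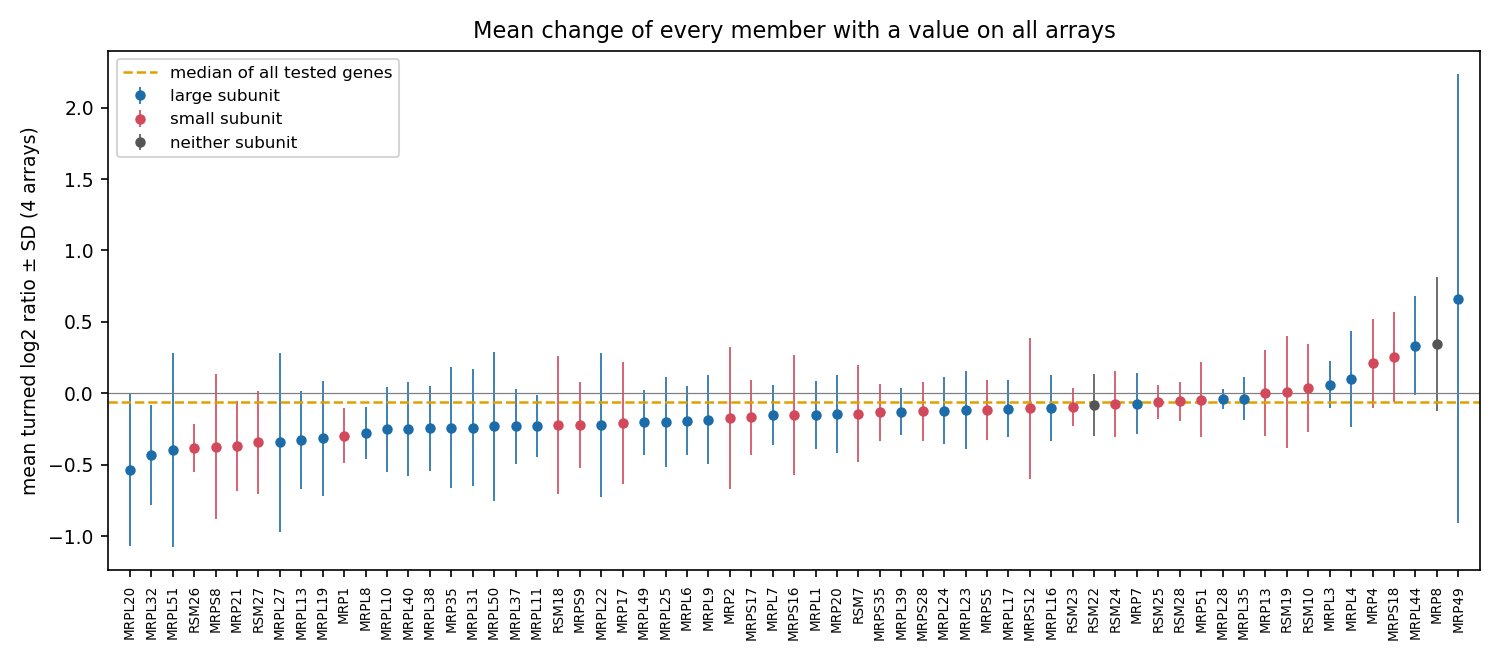
Mean turned log2 ratio of each of the 63 members (points, with the SD over 4 arrays as bars), in the order of their means and coloured by subunit. Most points lie between -0.53 and 0, MRP49 has by far the widest bar (SD 1.57), and the dashed line is the median of all tested genes (-0.06).

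The shift came from arrays 3 and 4. The members' medians were -0.27 and -0.40 there, against 0.02 and -0.02 on arrays 1 and 2, while the medians of all tested genes stayed between -0.10 and -0.02 on the 4 arrays. On both arrays 3 and 4 together 46 members lay on the TIP1 side (73.0%, against 40.4% of all tested genes). On both arrays 1 and 2 together 9 did (14.3%, against 33.6% of all). The mean over arrays 3 and 4 was below that over arrays 1 and 2 for 55 of 63 members, with a median difference of -0.34, against -0.07 over all genes. Whether these array pairs differ in culture, hybridisation or printing cannot be told apart from the labels.

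**Figure D2:**
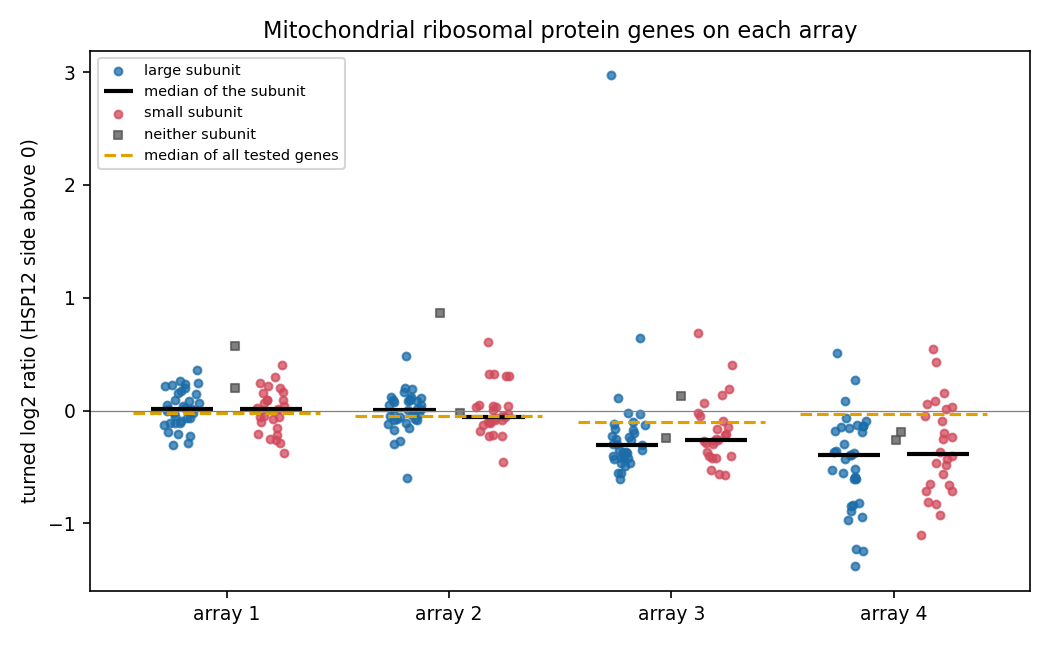
Turned log2 ratio of every member on each array, large subunit at left and small subunit at right of each array, with black lines for subunit medians and a dashed line for the median of all tested genes. Both subunits sit near 0 on arrays 1 and 2 and below the dashed line on arrays 3 and 4, where a single large subunit gene, MRP49, reaches 2.97.

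Large and small subunit genes lay side by side. The median of the mean was -0.20 for the 35 large subunit genes and -0.13 for the 26 small subunit genes, a difference of -0.07. On arrays 1 to 4 the large subunit had medians of 0.01, 0.01, -0.30 and -0.40, against 0.02, -0.05, -0.26 and -0.39 for the small subunit. The difference between subunits was thus under 0.07 on every array, and its sign was not the same on all of them. On the TIP1 side were 31 of 35 large subunit genes and 21 of 26 small subunit genes.

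The origin of the protein made little difference too. Genes for proteins with a bacterial counterpart had a median of -0.17 (n = 39), and genes for proteins found only in mitochondria -0.12 (n = 22). Within the large subunit the medians were -0.20 for both kinds, but the means of the mitochondrion-specific genes were spread more widely, with an SD of 0.32 between genes against 0.10. In that group lie MRP49 and MRPL44 at the upper end and MRPL20 and MRPL51 at the lower end. The SD of 0.32 includes MRP49, whose mean of 0.66 rested on a value of 2.97 on array 3.

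Among large subunit genes furthest on the TIP1 side, array 4 held most of the size. MRPL20, for a mitochondrion-specific protein, had 0.05, -0.59, -0.37 and -1.22 on arrays 1 to 4. Array 4 was lowest and array 1 lay at 0, and the mean of -0.53 did not pass (limma adjusted p = 0.314). MRPL51, for a mitochondrion-specific protein with a thioredoxin-like fold, had -0.02, -0.29, 0.11 and -1.38. MRPL27, also mitochondrion-specific, had 0.20, -0.09, -0.24 and -1.24. In both genes the value on array 4 stood well below the rest, which lay on both sides of 0. MRPL13 had its values on arrays 3 and 4 (-0.60 and -0.61) and stayed at -0.19 and 0.10 on arrays 1 and 2.

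MRPL32 kept its side. Its product, the counterpart of bacterial L32, is trimmed by the inner membrane m-AAA protease before it joins the ribosome. MRPL32 had -0.30, -0.03, -0.55 and -0.85 on arrays 1 to 4, all on the TIP1 side (-0.43 ± 0.35, limma adjusted p = 0.529). The protease subunit genes YTA12 and AFG3 lay on the other side, at 0.26 ± 0.42 and 0.21 ± 0.35, and neither was called. MRPL8, the counterpart of bacterial L17, also kept its side on all arrays, with -0.09, -0.16, -0.46 and -0.40.

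At the opposite end stood MRP49, for a mitochondrion-specific protein of the large subunit. It had 0.23, -0.04, 2.97 and -0.51 on arrays 1 to 4. The value on array 3 alone set the mean of 0.66 ± 1.57 (limma adjusted p = 0.313), and without array 3 the mean was -0.11. MRPL44, for a protein with a thioredoxin-like fold, had 0.36, 0.48, 0.64 and -0.15, so 3 arrays lay on the HSP12 side and array 4 did not. Its mean of 0.33 ± 0.34 was not called.

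Genes that sit together in the structure of the large subunit did not stand apart from the other members. The peptide exit, where new proteins leave toward the inner membrane, is lined by the products of MRPL4, MRP20, MRPL22 and MRPL40, which had means from -0.25 to 0.10. The stalk genes MRPL1, MRPL11 and MRPL19, whose products contact translation factors and tRNAs, had means of -0.15, -0.23 and -0.31. MRP7, MRPL16 and MRPL9, whose bacterial counterparts lie near the catalytic centre, had -0.07, -0.10 and -0.18. The reading frame YNL184C overlaps MRPL19 and had a mean of -0.24, and the spots of MRPL51 and MRP4 also overlap another annotated frame, so what these spots detect is uncertain.

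In the small subunit 3 genes kept the TIP1 side on all 4 arrays, among them a related pair. RSM26 and MRP1 encode proteins with a fold like that of superoxide dismutase that lie next to each other in the subunit. RSM26 had -0.26, -0.22, -0.56 and -0.48 on arrays 1 to 4, a mean of -0.38 ± 0.17 (limma adjusted p = 0.619). MRP1 had -0.10, -0.46, -0.16 and -0.46, a mean of -0.30 ± 0.19 (adjusted p = 0.731). All 8 values lay on the TIP1 side, and neither gene was called. RSM27 was the third, with -0.06, -0.09, -0.40 and -0.83.

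MRPS8 and MRP21 completed the lower end of the small subunit. MRPS8, whose bacterial counterpart binds ribosomal RNA early in assembly, had 0.06, -0.18, -0.27 and -1.10, again with array 4 lowest. MRP21, a platform protein gene, had -0.29, 0.04, -0.57 and -0.66. The other platform genes ranged widely, since MRPS18 had the highest mean of the small subunit (0.26 ± 0.31) and MRP17, RSM18 and MRPS28 had -0.21, -0.22 and -0.13.

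MRP4, RSM10 and RSM19 were the other small subunit genes with high means. MRP4, the counterpart of bacterial S2, had -0.06, -0.05, 0.41 and 0.55 on arrays 1 to 4, so that its values on arrays 3 and 4 lay opposite to those of most members. It is among the longer members. RSM10 (0.04 ± 0.31) and RSM19 (0.01 ± 0.39) had means at 0. RSM19 and MRPS12, the gene of the decoding centre protein, are neighbours on their chromosome with 229 bases between them, and both had their highest value on array 2 (0.31 and 0.61) and negative values on array 4 (-0.56 and -0.26).

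MRP8 and RSM22 carry the family's names without being structural subunits. MRP8 was once taken for a ribosomal protein on sequence alone, and RSM22 encodes a protein like methyltransferases. MRP8 had 0.57, 0.87, 0.13 and -0.19 on arrays 1 to 4, the highest value of all 63 members on arrays 1 and 2. Its mean was 0.34 ± 0.47 (limma adjusted p = 0.669), with no call. RSM22, the longest member, had 0.20, -0.02, -0.24 and -0.26. Without these 2 genes the median of the members was -0.15, as with them.

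Few members repeated their side from array to array. The same side on all 4 arrays was seen for 5 of 63 (7.94%), namely RSM26, MRP1, RSM27, MRPL32 and MRPL8, all on the TIP1 side. Of all tested genes 30.3% kept 1 side, 18.5% the TIP1 side and 11.8% the HSP12 side. Across the 63 members, arrays of the same dye orientation were alike, with an r of 0.37 for arrays 1 and 3 and 0.29 for arrays 2 and 4. Arrays of opposite dye orientation were not, with r from -0.12 to 0.06, whereas over all genes those pairs had 0.29 to 0.60 after turning. By rank, Spearman's rho over the members was 0.49 and 0.26 for the same orientation. For the opposite orientation it ran from -0.31 (arrays 1 and 2) to 0.03, against 0.09 to 0.50 over all genes. Genes on 1 array share labelling and hybridisation, and these values are a description only.

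The values were then split into components by their sum of squares. The mean of the 4 turned arrays, the part shared by both dye orientations, held 33.7% over the members, against 57.8% over all tested genes. Noise of the arrays enters every component, the mean included. The share over all genes is weighted toward genes with large values. The dye component, opposite in arrays of opposite orientation, held 23.9% against 15.0%, and the difference between both pairs of arrays (3 and 4 minus 1 and 2) held 28.6% against 21.0%. Without MRP49 the 3 shares of the members were 37.7%, 19.9% and 32.6%. Over 131 cytosolic ribosomal protein genes, which have the same role in the cytosol, the mean held 65.4%.

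**Figure D3:**
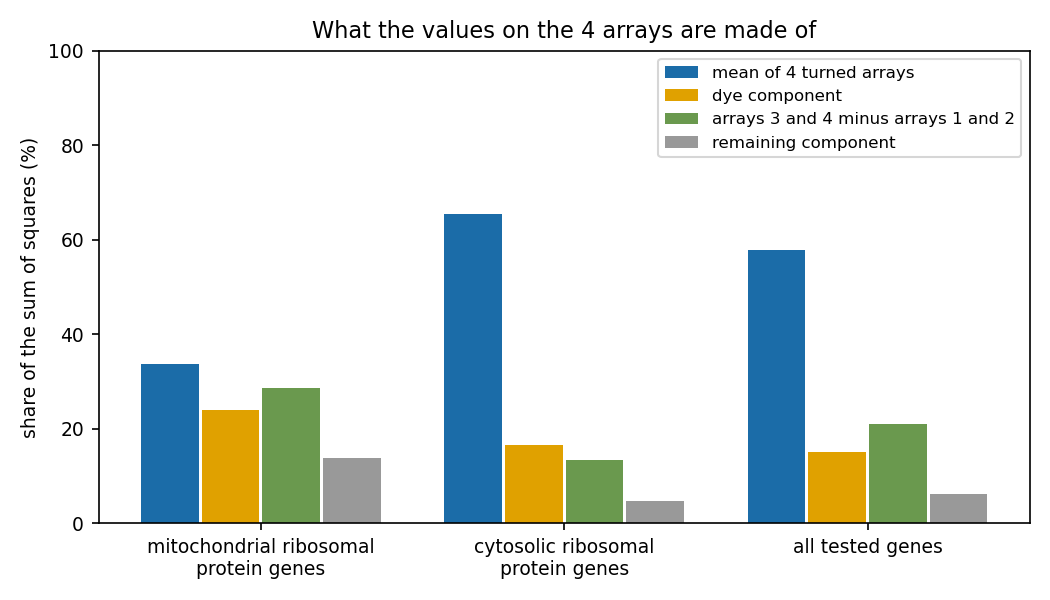
Share of the sum of squares of the turned log2 ratios that lies in each of 4 components, for the 63 members, 131 cytosolic ribosomal protein genes and all 4788 tested genes. The mean over arrays is the tallest bar in each set, at 33.7% for the members against 57.8% for all genes.

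Coding span moved with the values on arrays 3 and 4 over all genes, and over the members mainly on array 4. The members are short, with a median span of 714 bases from start to stop (213 to 1887, any intron included), against 1218 over all 4578 tested genes with a span. Over the members Spearman's rho with span was 0.58 on array 4, and -0.06, 0.09 and -0.24 on arrays 3, 2 and 1. Over all genes it was 0.45 on array 3 and 0.40 on array 4. Other genes of the members' size lay on the same side. Members of 213 to 477 bases had a median of -0.22 (n = 21), against -0.18 over 379 other genes in that range. For 486 to 837 bases the medians were -0.18 (n = 21) and -0.14 over 834 others, and for 846 to 1887 bases -0.10 (n = 21) and -0.05 over 2140 others.

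Within the shortest class the members were lower than other genes on array 4 (-0.71 against -0.36) and not on array 3 (-0.23 against -0.27). On array 3 the members of the other classes were lower than other genes, at -0.41 against -0.28 for 486 to 837 bases and at -0.24 against -0.11 for 846 to 1887 bases. On array 4 they were so too, at -0.37 against -0.25 and at -0.13 against 0.02. With the trend of span removed on each array, the members' median was -0.09, against -0.05 over all tested genes with a span, and 49 of 63 members (77.8%) lay on the TIP1 side, against 58.4% of all those genes. The members' median thus lay 0.03 from that of all genes after removal, against 0.09 before. By array the gap was uneven after removal. On array 3 the members had -0.16 against -0.13 over all, and on array 4 -0.15 against 0.02. The part that span itself plays in these values was not tested.

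**Figure D4:**
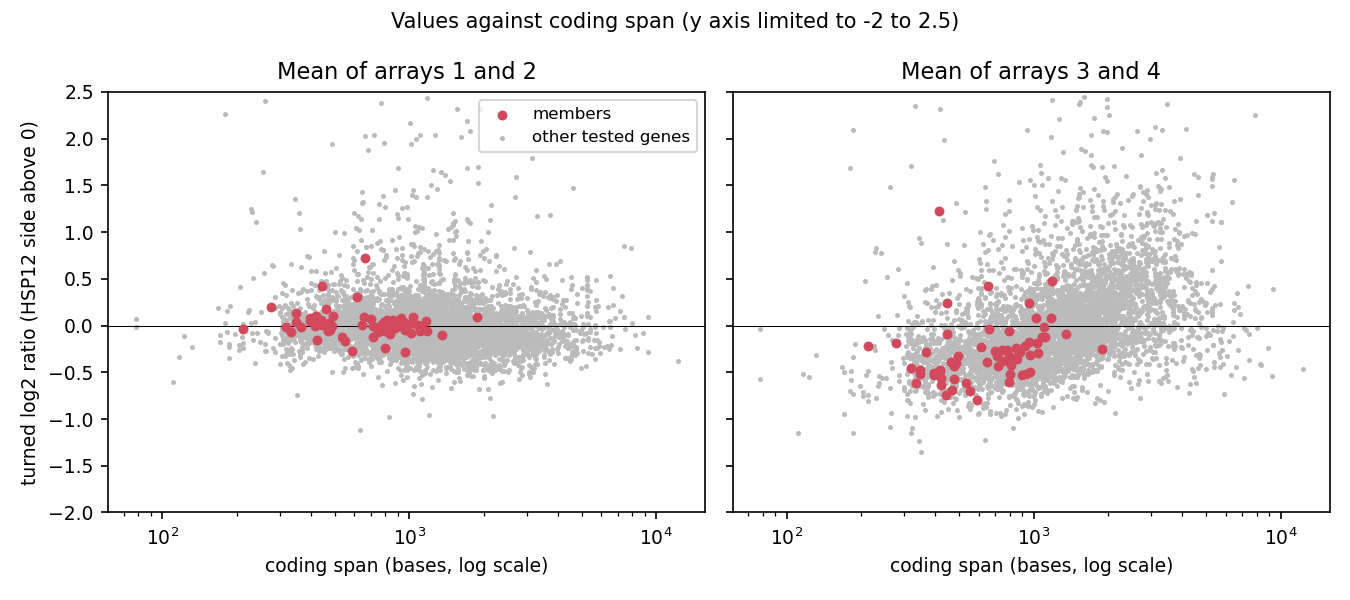
Mean turned log2 ratio over arrays 1 and 2 (left) and over arrays 3 and 4 (right) against coding span on a log axis, with members in red and other tested genes in grey; 9 and 27 other genes beyond the axis limits are not drawn. On arrays 3 and 4 short genes, most members among them, lie mostly below 0, and the values of all genes tend to rise with span.

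Other genes of mitochondrial translation did not pass either. Of 61 measured genes in 6 lists, 0 were called (limma), 3 had an unadjusted p under 0.05, and the smallest adjusted p was 0.0929, for the haem-responsive regulator gene HAP1. The 13 mitochondrial ribosomal protein genes with other names had a median of -0.16, with 11 on the TIP1 side, close to the members' -0.15. Like the members, they lay at 0.00 on both arrays 1 and 2, and at -0.22 and -0.25 on arrays 3 and 4. They are short too, with a median span of 585 bases. With the trend of span removed, the median of these 13 was -0.04, with 10 on the TIP1 side. The members then had -0.09 and all tested genes with a span -0.05. IMG2 (-0.36 ± 0.41) and MHR1 (-0.28 ± 0.31), both of the large subunit, were the lowest of them. NAM9, the counterpart of bacterial S4, had -0.10, -0.15, -0.18 and -0.36.

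Before removal of the span trend, lists of other mitochondrial translation genes lay nearer to 0 or on the other side. The 9 genes of translation factors and membrane insertion had a median of 0.04, the 12 tRNA synthetase genes 0.03, the 12 translational activator genes 0.04, and the 6 genes of ribosome assembly and protein maturation 0.17. They are longer, with median spans of 1209 to 1545 bases. With the trend of span removed, their medians were 0.03, 0.02, -0.09 and 0.09 in the same order. The activators then lay as low as the members (-0.09). TUF1, the mitochondrial elongation factor Tu, had 0.24, 0.23, 0.39 and 0.68 on arrays 1 to 4, all on the HSP12 side (0.38 ± 0.21, limma adjusted p = 0.614), and MEF1, elongation factor G, had 0.08, 0.10, 0.45 and 0.55. PET122, an activator of COX3 messenger translation that is linked by suppressor genetics to MRP1 and MRP17, had -0.24, 0.18, 1.08 and 1.31 (adjusted p = 0.234). CBS2, an activator for cytochrome b, had -0.32 ± 0.37, and the synthetase genes MSK1 and NAM2 had 0.35 ± 0.27 and 0.27 ± 0.36.

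Regulators of mitochondrial genes gave no common value. The 10 genes of mitochondrial DNA expression and of the HAP factors, which activate respiratory genes, had a median of 0.00. HAP1 had 1.25, -0.46, 2.33 and -0.37, with arrays 1 and 3 high and arrays 2 and 4 low, a split by dye orientation, and it passed without array 4 (limma adjusted p = 0.00338). HAP3 had -0.40, 0.12, -0.87 and -0.77. HAP4, the regulatory subunit, named after its values were seen, had 0.06, -0.07, 0.53 and 0.64. The membrane insertion gene MDM38 had -0.22 and -0.08 on arrays 1 and 2 and 0.77 and 0.81 on arrays 3 and 4.

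Cytosolic ribosomal protein genes were set beside the members as the other ribosome of the cell. The members had medians of 0.02, -0.02, -0.27 and -0.40 on arrays 1 to 4, against -0.19, -0.23, -0.35 and -0.49 for 131 cytosolic genes. On arrays 1 and 2, where the members lay at 0, the cytosolic genes were thus already on the TIP1 side. The same side on all arrays was seen for 5 of 63 members and 96 of 131 cytosolic genes, and 0 genes of either set were called (2 members and 12 cytosolic genes had an unadjusted p under 0.05). With the trend of span removed, the medians were -0.09 for the members and -0.25 for the cytosolic genes. Many cytosolic genes have a near-identical copy whose spots cannot be told apart with certainty.

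**Figure D5:**
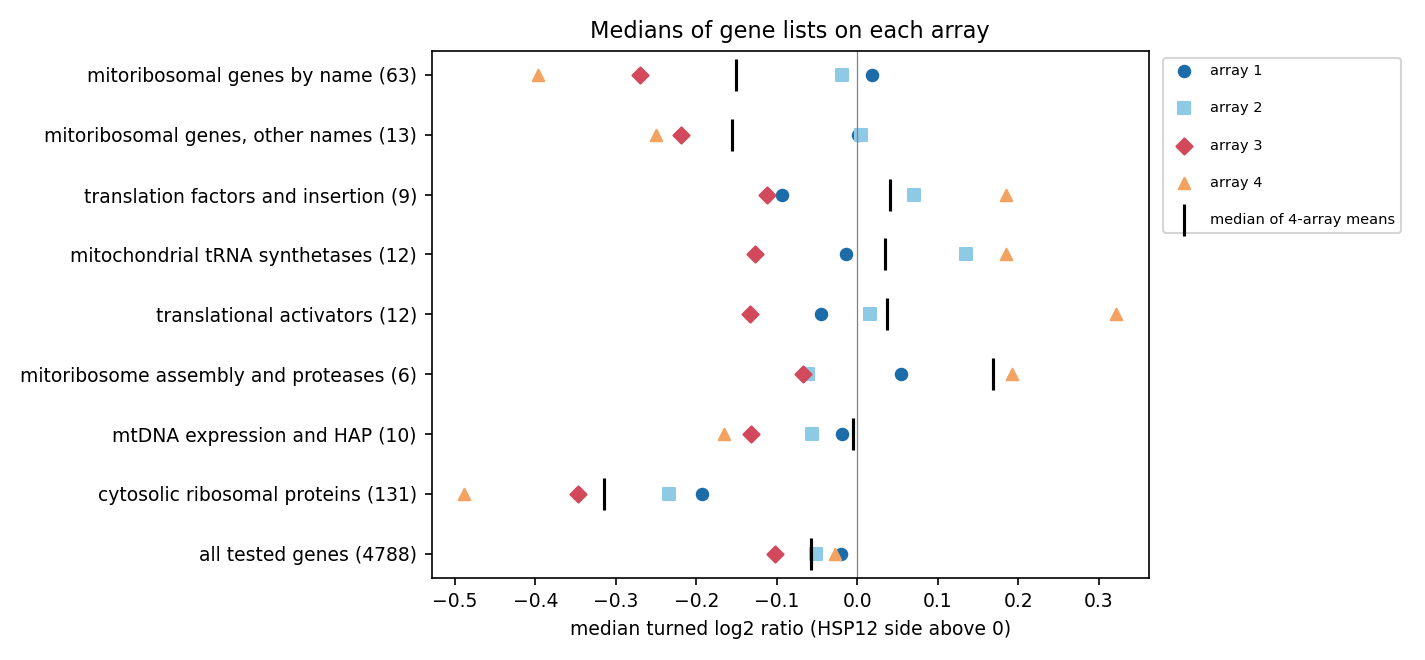
Median turned log2 ratio of each gene list on arrays 1 to 4 (symbols) and of the means over arrays (black lines), with the number of genes in brackets. The members and the mitochondrial ribosomal genes with other names share a pattern of arrays 1 and 2 near 0 and arrays 3 and 4 below, whereas the cytosolic genes are below 0 on all 4 arrays.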

How the data were processed

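Log2 ratios between both channels of 4 two-colour arrays were used as deposited; their base, numerator, background correction, normalization and filter on spots are nowhere stated in the labels, and log2 was taken from the size of the values. Per the labels' protocols, RNA was labelled by direct incorporation of Cy3 or Cy5 during reverse transcription. Scale, centring and direction as set by the authors stay unknown; the deposited medians were -0.02, 0.05, -0.10 and 0.02 on arrays 1 to 4, with 5402, 5434, 5201 and 4931 values. No scanner intensities entered the work, which leaves signal over background unknown, and the number of arrays limits the precision.

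All 4 arrays formed 1 group, numbered by title. Arrays of opposite dye orientation correlated below 0 as deposited (r from -0.60 to -0.29) and were turned by the dye of the zymolyase channel. Of 6209 rows 2 were controls. Row names were matched to the RefSeq gene table of assembly R64 (5677 of 6207, 23 through a synonym), used for names, neighbours and spans only. Genes with a value on all 4 arrays were tested with limma (version 3.58.1, R 4.3.3). Arrays were averaged by culture, on the assumption that each culture was hybridised in both dye orientations, which the labels do not state. Fits with lmFit and eBayes were run for both pairings of opposite dye orientation. The pairing of arrays of the same dye orientation was not fitted. The larger p of both fits was adjusted by the Benjamini-Hochberg method over all genes, with calls under 0.05. It need not be the largest p over all pairings. The procedure was tested on simulated data.

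The members and gene lists were chosen with earlier results of these data known. Subunits, roles and lists come from general knowledge; the role groups were set after values had been seen. Named genes were all called members, the 6 large and 4 small subunit members with the highest and the lowest means, the 3 with the largest SD, on each side the 3 of constant sign with the largest minimum size, both genes of no subunit, and from each list called genes and the 2 largest means. Other members were named for their role, and NAM9 and MEF1 after their values were seen. The alternatives were 1 pairing at a time, all arrays as separate replicates, a dye term, centring, scaling, genes with at least 3 values, removal of the span trend (loess, span 0.3), a size minimum and leaving out each array.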

Additional observations from a re-analysis of the deposited data

Results flagged for a closer look

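RSM24, a mitochondrion-specific protein gene of the small subunit, had 0.02, 0.05, -0.42 and 0.06 on arrays 1 to 4. Array 3 stood apart from the others, with a gap of 0.906 of the whole range, above Dixon's 95% critical value for 4 samples. It was the only 1 of 63 members so marked, and of 78 items examined in all. Chance marks about 1 in 20 such groups.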

How the results depend on the processing

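The count of 0 called members held under 12 of 13 alternatives. Among these the size minimum keeps only a part of the main calls and could give no other count. The pairing of arrays 1 with 2 and 3 with 4 alone is nearly the main fit (223 genes called against 218). The exception was the fit on the pairing of arrays 1 with 4 and 2 with 3 only, which called 11 members (17.5%), 10 on the TIP1 side and MRP8 on the HSP12 side, against 29.6% of all genes (1415). It also called 10 genes of the related lists. Those lists had 1 call, HAP1, after scaling to equal median absolute deviation, and 0 to 1 when each array was left out. The count over all genes was 116 without the span trend, 136 at a size of at least 1, and 76 to 195 when each array was left out. The members' median stayed between -0.23 and -0.08 when each array was left out. The difference between subunits was 0.0152 on arrays 1 and 2 and -0.128 on arrays 3 and 4 (alternatives chosen after seeing the data), and -0.136 to -0.0038 when each array was left out. Among 432 values of 36 named genes under these alternatives, 12 changed side, all uncalled. MRP49 was among them, with 0.66 over all arrays and -0.108 without array 3, and the others started from means close to 0. A call was gained by 21 values, all in the pairing of arrays 1 with 4 and 2 with 3 except 2 of HAP1 (scaling, and without array 4). When each array was left out, MRP49 ranged from -0.108 to 1.05, MRPL4 from -0.0367 to 0.229, MRPL3 from -0.0084 to 0.121, MRPL35 from -0.0815 to 0.0203, RSM10 from -0.0517 to 0.138 and RSM19 from -0.092 to 0.198. Centring gave 0.014 for MRPL35 and 0.0097 for MRPL28, and removal of the span trend 0.0727 for MRPL28. Fits without an array keep 1 pair as a single array, assumed to vary like the other pair. Treated and untreated RNA were paired on each array, and the tests were of that ratio against 0. No further pairing between groups of arrays was possible, since all 4 arrays form 1 group. The causes were not tested.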
